A study of Mus musculus with 12 samples.

Results

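The 46 genes described here encode the machinery of DNA replication and the enzymes of S phase, from origin recognition to nucleotide synthesis. They were taken as a list of gene symbols and not by a rule on their measured levels, although earlier results of these data were known. All 46 were found among the 24054 genes of the count table, and all 46 passed the filter on low counts that left 14876 genes for testing. Polyadenylated RNA was sequenced from primary mouse embryonic fibroblasts (MEFs), connective tissue cells grown out of embryos, to compare gene expression between genotypes of the DNA helicases Blm and Recql. There were 3 libraries of each of 4 genotypes, which were Blm -/- Recql -/- (double KO), Blm-/- (Blm KO), Recql-/- (Recql KO) and wild type (WT). Culture was at 3% O2 and 5% CO2 with 10% serum for every genotype. The labels name no embryo, litter, sex or passage number, and they do not say which part of either gene was deleted. Nothing in them states that replicate libraries are from different embryos or dishes, and each p-value therefore reflects only how far these libraries lie apart, which may be technical in part. Each KO label covers libraries with high and with low Y-linked transcripts, so its libraries were not all repeats of 1 sample, while the 3 WT libraries were alike in this.

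Replication is prepared in G1, when the origin recognition complex, CDC6 and CDT1 load the ring-shaped MCM helicase onto DNA. In S phase CDC45 and the GINS complex join the ring, DNA polymerases copy both strands behind it, and the sliding clamp PCNA holds the polymerases in place. Transcripts of many of these genes are made around the G1 to S transition under E2F transcription factors, so in growing fibroblasts their level is known to follow the share of cells in the cycle. BLM and RECQL1 are RecQ helicases, enzymes that unwind branched DNA at replication forks. In RNA from a bulk culture, fewer cells in S phase and less of a transcript per cell cannot be told apart.

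E2F sites are the feature that promoters of this gene class are known for, so 4 promoters are shown beside the results that follow. RefSeq promoters of GRCm38.p6, running from 250 bases before to 50 after the gene start, were listed for 38 of the 46 genes. The words searched, on both strands and with overlaps allowed, were TTTCCCGC, TTTCGCGC, TTTGCCGC and TTTGGCGC, forms of the E2F site. At least 1 word lay in a listed promoter of 15 of the 38 genes (39.5%), against 704 of 27025 genes in the table (2.6%). The CCAAT box, searched as CCAAT on both strands, lay in 24 of the 38 (63.2%), against 41.1% of all genes. Capitals mark the E2F words, and each sequence runs 5′ to 3′ in the direction of the gene. Mcm6, a subunit of the MCM ring (chr1:128359656-128359955, minus strand), had 3 words, 2 of which overlap. Orc1, the largest subunit of the origin recognition complex (chr4:108579204-108579503, plus strand), had 1 word. Gins3, a subunit of GINS (chr8:95633309-95633608, plus strand), had 1 word. Rfc4, a subunit of the clamp loader (chr16:23127681-23127980, minus strand), had none of these words in its window.
Mcm6: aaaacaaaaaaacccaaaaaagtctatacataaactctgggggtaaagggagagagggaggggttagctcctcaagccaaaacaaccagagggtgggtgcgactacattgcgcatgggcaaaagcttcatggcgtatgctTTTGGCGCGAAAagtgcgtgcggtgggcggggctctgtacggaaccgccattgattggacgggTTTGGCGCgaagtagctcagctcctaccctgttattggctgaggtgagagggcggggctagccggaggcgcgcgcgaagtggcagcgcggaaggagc
Orc1: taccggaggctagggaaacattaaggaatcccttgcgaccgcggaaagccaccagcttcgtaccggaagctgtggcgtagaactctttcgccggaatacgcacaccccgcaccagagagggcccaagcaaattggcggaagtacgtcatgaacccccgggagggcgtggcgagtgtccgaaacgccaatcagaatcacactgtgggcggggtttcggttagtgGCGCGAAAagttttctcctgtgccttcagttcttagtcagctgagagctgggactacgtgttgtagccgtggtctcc
Gins3: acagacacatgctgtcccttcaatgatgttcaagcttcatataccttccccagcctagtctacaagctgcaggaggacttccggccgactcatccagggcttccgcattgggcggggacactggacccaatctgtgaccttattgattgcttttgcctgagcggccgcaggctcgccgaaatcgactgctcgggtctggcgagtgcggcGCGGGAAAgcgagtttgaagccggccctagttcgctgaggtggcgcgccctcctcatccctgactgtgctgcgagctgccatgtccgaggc
Rfc4: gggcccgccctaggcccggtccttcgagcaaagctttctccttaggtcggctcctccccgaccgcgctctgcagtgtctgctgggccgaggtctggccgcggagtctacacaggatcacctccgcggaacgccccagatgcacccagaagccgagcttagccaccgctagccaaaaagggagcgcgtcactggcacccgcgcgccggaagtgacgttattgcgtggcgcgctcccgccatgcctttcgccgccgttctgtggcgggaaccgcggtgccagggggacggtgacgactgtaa

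Library totals ran from 47758552 to 59296354 expected counts, which puts 3 counts at 0.0506 to 0.0628 CPM (counts scaled to a common library total). The smallest count of a replication gene in any library was 153, so none was near that limit. Blm stood at 5.66, 6.99 and 3.86 CPM in double KO libraries and 5.64, 3.18 and 3.58 CPM in Blm KO libraries, against 14.3, 16.4 and 16.1 CPM in Recql KO libraries and 21.9, 21.7 and 18.6 CPM in WT libraries. Recql did not pass the test in the libraries labelled for its loss, with 26.3 ± 8.57 CPM in double KO libraries, 25.2 ± 4.16 CPM in Recql KO libraries and 27.7 ± 1.87 CPM in WT libraries (SD, n = 3 each). Its log2 difference from WT was -0.07 for double KO (adjusted p 0.928, edgeR) and -0.13 for Recql KO (adjusted p 0.642, edgeR), so directions drawn from those libraries rest on their labels. The sum of 4 Y-linked transcripts was above 100 CPM in 1 double KO library (replicate 2), 1 Blm KO library (replicate 1), 1 Recql KO library (replicate 1) and 3 WT libraries. It was between 0.676 and 28.7 CPM in the other 6. The X-linked transcript Xist split the libraries the opposite way. It stood at 309.6 to 472.9 CPM in those 6 and at 0.1112 to 11.68 CPM in the libraries above 100 CPM. Recql KO replicate 2 had both signals, with a Y-linked sum of 28.7 CPM and Xist at 309.6 CPM. The labels name no sex, so this split was not checked against one. Fibroblast markers (8 genes) summed to 40530 to 47660 CPM for double KO, 45380 to 49490 CPM for Blm KO, 21000 to 25730 CPM for Recql KO and 31660 to 33980 CPM in WT libraries. Markers of macrophages and blood, endothelium and epithelium (8 genes each) summed to at most 17.7, 21.0 and 46.6 CPM in any library.

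The genes spanned a wide range of abundance, with means over the 12 libraries of 3.94 CPM for Gins1 up to 172 CPM for Rrm1. Per kilobase of exon, Rrm2, the regulated subunit of ribonucleotide reductase, stood at 55.1 CPM per kb in WT cells and Pcna at 37.9 CPM per kb. The MCM ring subunits Mcm2 to Mcm7, which are assembled in equal numbers, ran from 8.07 (Mcm2) to 26.8 (Mcm4) CPM per kb in WT. The length used joins all annotated exons, 6956 bases for Mcm2 and 3589 for Mcm4. Its part in this spread was not tested. Orc1 stood at 2.19 and Gins3 at 1.87 CPM per kb in WT. Between the lowest and the highest of the 12 libraries, single genes differed by 1.31-fold (the smallest span) to 3.16-fold (the largest).

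Most of the 46 genes were high or low in the same libraries. Their median log2 CPM relative to the WT mean was -0.22, 0.23 and -0.43 in the double KO libraries, -0.35, -0.64 and -0.51 in the Blm KO libraries, -0.18, 0.09 and 0.05 in the Recql KO libraries and -0.02, 0.18 and -0.13 in the WT libraries. All 3 Blm KO libraries lay below all 3 WT libraries, while the double KO libraries lay on both sides of WT. The median over all genes was within 0.02 of 0 in every library. Double KO replicate 2 was the highest of its group for 45 of the 46 genes and replicate 3 the lowest for 38. Counts of the highest or lowest library of a group were not made over all genes. The median SD of log2 CPM over these genes was 0.36 for double KO, 0.15 for Blm KO, 0.15 for Recql KO and 0.18 for WT libraries. The library with the high Y-linked sum was the highest of its group in double KO and, for 37 of the 46 genes, in Blm KO (replicate 1), but the lowest of its group for 37 of the 46 in Recql KO (replicate 1). The part of that difference in these levels was not tested.

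**Figure D1:**
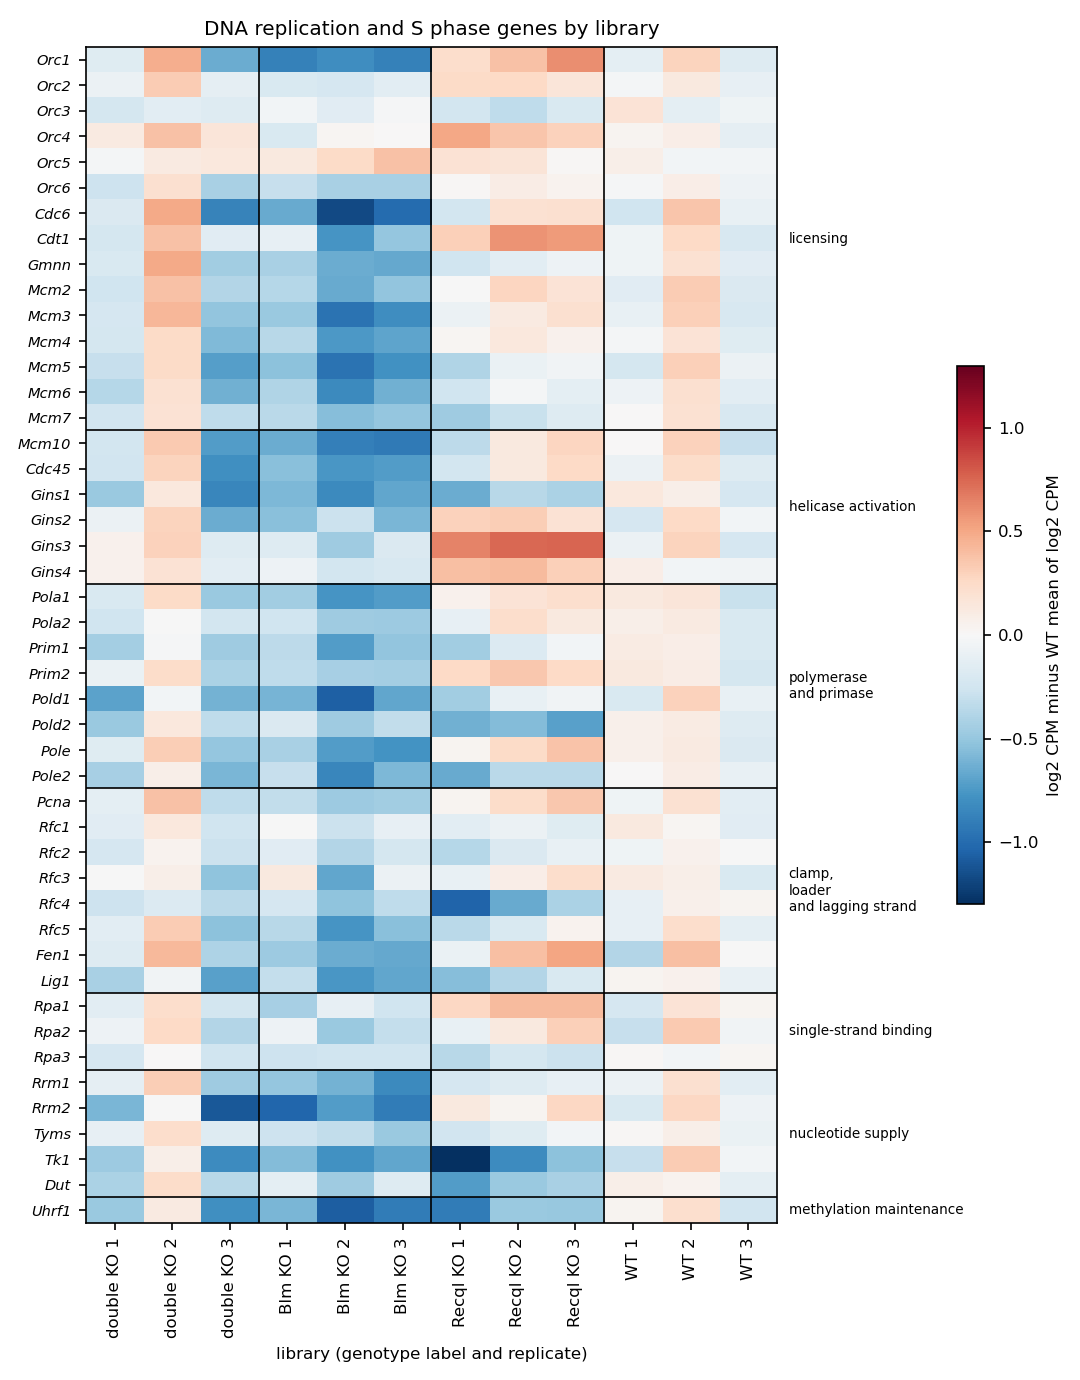
Level of each of the 46 genes (rows, by role) in each of the 12 libraries (columns), as log2 CPM minus the mean of the 3 WT libraries of that gene. The Blm KO columns are low for most genes, double KO replicate 2 is high, and the Recql KO columns differ from gene to gene.

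A list of 20 genes of G2 and mitosis, such as Cdk1, Ccnb1 and Plk1, was read in the same libraries. Their median relative to the WT mean was -0.37, 0.20 and -0.73 in the double KO libraries, -0.56, -0.83 and -0.86 in the Blm KO libraries, -0.96, -0.77 and -0.60 in the Recql KO libraries and 0.03, 0.12 and -0.14 in the WT libraries. Among the double KO libraries, replicate 2 was highest and replicate 3 lowest for both sets. In the 3 libraries labelled Recql KO the median of the mitotic genes was below that of every WT library, while the median of the replication genes was between -0.18 and 0.09. The median log2 fold change of the mitotic genes in Recql KO against WT was -0.76, with 13 of 20 called lower by edgeR's quasi-likelihood test, against 15.6% of all genes. Whether the 2 sets differ in their change was not tested.

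**Figure D2:**
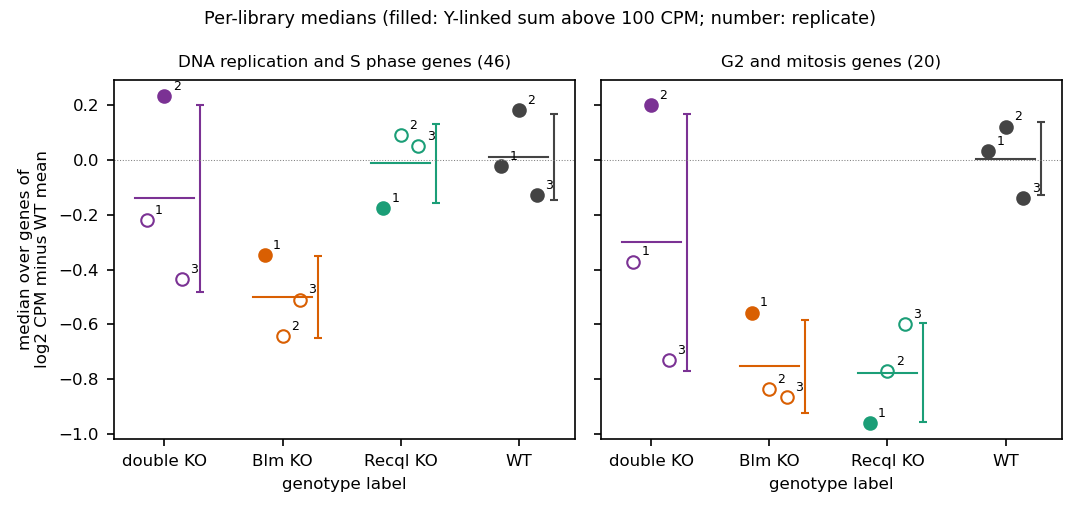
Median log2 CPM relative to the WT mean for the replication genes and for 20 genes of G2 and mitosis, 1 point per library (numbers give the replicate), with the mean and SD of each genotype (n = 3). Filled points are libraries with a Y-linked sum above 100 CPM. In Recql KO the mitotic median is between -0.96 and -0.60 while the replication median is between -0.18 and 0.09.

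In Blm KO cells against WT, the values of nearly all replication genes were lower, but no gene passed the test over all genes. Of the 46, 45 had a log2 fold change below 0, with a median of -0.50 and a range of -0.95 to 0.26, while the median over all genes tested was 0.00. For 37 of the 46 genes every Blm KO library lay below every WT library, against 12.1% of all genes, and for Orc5 alone every Blm KO library lay above (12.7% of all genes). edgeR's quasi-likelihood test with Benjamini-Hochberg adjustment called 0 of 46, where it called 0.753% of all genes (0.363% higher and 0.39% lower). The smallest adjusted p was 0.104, for Rrm2. At an unadjusted p under 0.05, 33 were lower and 1 was higher, against 9.74% and 9.12% of all genes. DESeq2 called 17 lower, against 3.64% of all genes. The 20 genes of G2 and mitosis were lower in the same comparison, with a median of -0.74, 0 called by edgeR and 20 lower at an unadjusted p under 0.05, and the part of the cell cycle in these values was not tested.

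Rrm2 (mm10 chromosome 12, 24708241 to 24714146, plus strand) had the smallest p in Blm KO. It stood at 74.1, 91.5 and 80.4 CPM in Blm KO libraries, against 132, 182 and 144 CPM in WT libraries, a log2 difference of -0.90 ± 0.23 (SE). The groups did not overlap. Rrm1, the large subunit of the same enzyme, stood at 138, 128 and 111 CPM in Blm KO libraries, against 186, 226 and 179 CPM in WT libraries, a log2 difference of -0.65 ± 0.17. Both subunits were therefore below the WT range in every Blm KO library. Uhrf1, which brings the maintenance DNA methyltransferase to newly copied DNA, stood at 44.7, 32.0 and 36.1 CPM in Blm KO libraries, against 69.3, 78.3 and 56.6 CPM in WT libraries, a log2 difference of -0.86 ± 0.23.

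The catalytic polymerase subunits Pold1 and Pola1 were also below the WT range in every Blm KO library. Pold1, of DNA polymerase delta, stood at 12.1, 8.82 and 11.5 CPM in Blm KO libraries, against 16.0, 22.6 and 17.2 CPM in WT libraries, a log2 difference of -0.78 ± 0.21. Pola1, of DNA polymerase alpha, which starts each new strand, stood at 24.5, 19.8 and 20.4 CPM in Blm KO libraries, against 36.8, 37.6 and 27.5 CPM in WT libraries, a log2 difference of -0.66 ± 0.18. Adjusted p was 0.110 for Pold1, 0.111 for Rrm1, 0.112 for Uhrf1 and 0.113 for Pola1 by edgeR's quasi-likelihood test. These 5 genes have the smallest p of the 46 in Blm KO.

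By role, the Blm KO medians were -0.53 for the 15 licensing genes, -0.58 for the 6 helicase activation genes, -0.54 for the 8 polymerase and primase genes and -0.65 for the 5 genes of nucleotide supply. They were -0.39 for the 8 genes of the clamp, its loader and the lagging strand, and -0.27 for the 3 subunits of RPA, the protein that coats single-stranded DNA. The lowest value among licensing genes was that of Cdc6, at -0.95 ± 0.31. Orc1, whose protein is known to vary over the cycle in mammalian cells, had -0.87 ± 0.25, Orc6 had -0.38 ± 0.13, and Orc2 to Orc5 lay between -0.19 and 0.26. The 6 MCM ring subunits lay between -0.77 (Mcm5) and -0.48 (Mcm7). Genes with an E2F word in a listed promoter had a median of -0.61 (n = 15) and genes without one -0.38 (n = 23), a description of these promoters only.

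The number of calls in Blm KO differed with the library left out. Without double KO replicate 2, which is in neither group of this comparison, 15 of the 46 were called lower, against 2.18% of all genes. Without double KO replicate 3, 2 were called lower (Rrm1 and Rrm2), against 0.954% of all genes. Leaving out any other library gave 0 calls. Among all genes, between 31 and 572 were called in either direction with 1 library left out. The biological coefficient of variation was 0.209 with all libraries, 0.194 without double KO replicate 2, 0.207 without replicate 3 and 0.201 to 0.221 without any of the other 10, and its part in the number of calls was not tested.

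**Figure D3:**
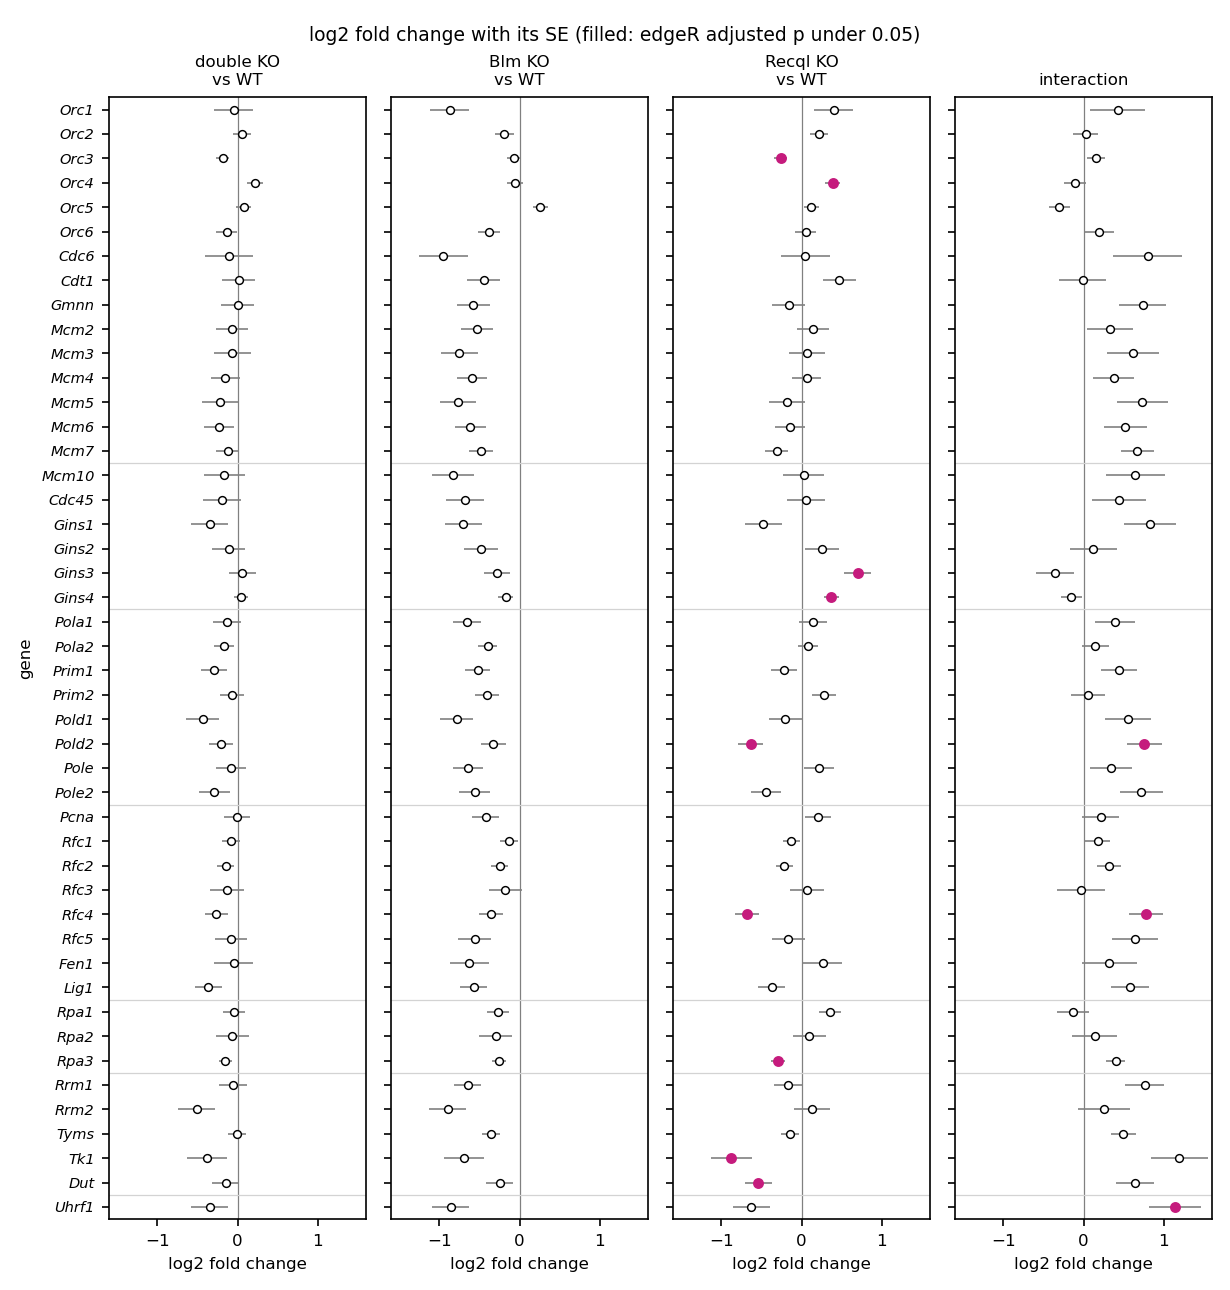
log2 fold change of each gene (rows, by role) with its SE in double KO, Blm KO and Recql KO against WT, and the interaction, which subtracts the Recql KO minus WT difference from the double KO minus Blm KO difference. Filled points passed edgeR's adjusted p under 0.05. In Blm KO 45 of 46 points are below 0 and none is filled, and in Recql KO 9 are filled, 3 above and 6 below 0.

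In the libraries labelled Recql KO, single replication genes differed from WT in both directions. edgeR's quasi-likelihood test called 9 of 46 (19.6%), 3 higher and 6 lower, where it called 29.9% of all genes (14.2% higher and 15.6% lower), so the share was below that of all genes. The median log2 fold change was 0.05, with 25 genes above and 21 below 0. Every Recql KO library lay above every WT library for 7 genes (23.9% of all genes) and below for 11 (25.4% of all genes). The fibroblast marker sum was lower in every Recql KO library than in every WT library. Of its 8 genes, 5 were below 0 and 3 above 0 in Recql KO against WT. The collagens Col1a1, Col1a2 and Col3a1 fell, by log2 differences of -0.85, -0.90 and -2.13 (called by edgeR). Pdgfra, at a mean of 146 against 223 CPM in WT, and Vim, at 3236 against 4108 CPM, were lower but did not pass. Fn1, Thy1 and Pdgfrb stood at 0.22, 0.24 and 0.05 and did not pass. The part of these markers in the differences was not tested.

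The 3 genes that rose belong to the GINS and origin recognition complexes. Gins3 (mm10 chromosome 8, 95633453 to 95645060, plus strand) stood at 7.82, 8.37 and 8.42 CPM in the libraries labelled Recql KO, against 4.75, 6.10 and 4.30 CPM in WT libraries. It was higher by 0.70 ± 0.17 (log2, SE) with an adjusted p of 0.0106 by edgeR, and the groups did not overlap. Gins4 (mm10 chromosome 8, 23226616 to 23237659, minus strand) stood at 36.0, 36.6 and 34.1 CPM in the libraries labelled Recql KO, against 29.3, 26.8 and 26.6 CPM in WT libraries. It was higher by 0.37 ± 0.09 (adjusted p 0.0132, edgeR) without overlap. The other subunits of GINS did not pass the test, with -0.48 for Gins1 and 0.26 for Gins2. Orc4, a subunit of the origin recognition complex, stood at 53.1, 48.2 and 46.01 CPM in the libraries labelled Recql KO, against 38.4, 39.9 and 34.5 CPM in WT libraries. It was higher by 0.39 ± 0.10 (adjusted p 0.0149, edgeR).

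Among the 6 genes that fell, Rfc4 had the smallest p. Rfc4 (mm10 chromosome 16, 23113943 to 23127737, minus strand), one of the small subunits of the loader that opens PCNA, stood at 7.196, 9.42 and 11.1 CPM in the libraries labelled Recql KO, against 13.8, 15.5 and 15.3 CPM in WT libraries. It was lower by a log2 difference of -0.68 ± 0.15 (adjusted p 0.00707, edgeR) and the groups did not overlap. The other loader subunits lay between -0.21 and 0.07 and none passed the test. Of the exon bases of Rfc4, 194 (12.7%) overlap exons of Eif4a2 on the opposite strand, and the strand setting of the counting is not given in the sources used here.

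Pold2 (mm10 chromosome 11, 5872180 to 5878292, minus strand), the accessory subunit that pairs with POLD1, stood at 10.8, 11.2 and 10.2 CPM in the libraries labelled Recql KO, against 17.4, 17.8 and 14.8 CPM in WT libraries. The difference was -0.63 ± 0.15 (adjusted p 0.0118, edgeR), with no overlap. Pold1 itself was at -0.20 and did not pass. Tk1, thymidine kinase of the salvage route, stood at 8.36, 11.8 and 14.4 CPM in the libraries labelled Recql KO, against 16.9, 26.1 and 20.3 CPM in WT libraries. Its difference was -0.88 ± 0.25 (adjusted p 0.0250, edgeR).

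Dut, the enzyme that removes dUTP and so supplies dUMP for thymidylate synthesis, stood at 20.9, 24.8 and 25.9 CPM in the libraries labelled Recql KO, against 36.5, 35.7 and 31.8 CPM in WT libraries. Its difference was -0.54 ± 0.17 (adjusted p 0.0341, edgeR). The remaining genes of nucleotide supply, Rrm1, Rrm2 and Tyms, lay between -0.17 and 0.13 and did not pass. Rpa3, the smallest RPA subunit, stood at 13.6, 14.8 and 14.3 CPM in the libraries labelled Recql KO, against 17.6, 16.95 and 17.7 CPM in WT libraries, a difference of -0.29 ± 0.09 (adjusted p 0.0276, edgeR). Orc3 stood at 47.4, 44.4 and 48.5 CPM in the libraries labelled Recql KO, against 63.0, 51.3 and 53.9 CPM in WT libraries, a difference of -0.26 ± 0.08 (adjusted p 0.0351, edgeR). None of the 9 called genes had overlapping groups.

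The calls of Rfc4, Pold2, Gins3 and Gins4 held with each of the 12 libraries left out in turn. Those of Orc4, Tk1, Rpa3, Dut and Orc3 held in 10, 8, 7, 6 and 6 of 12. The number called was 4 without Recql KO replicate 1, 5 without Recql KO replicate 2 and 4 without WT replicate 3. The share of all genes was not counted for these runs. With 1 library left out, between 2692 and 4964 of all genes were called in either direction. Leaving out double KO replicate 2 gave 14 calls, where 15.9% of all genes were called higher and 17.1% lower. With a covariate for the Y-linked level 5 were called (Orc4, Gins3, Gins4, Pold2 and Rfc4), against 11.1% of all genes higher and 12.4% lower. In the 6 libraries with a Y-linked sum above 100 CPM, where 1 Recql KO library stands against 3 WT libraries, 2 were called (Rfc4 and Tk1), against 3.46% of all genes higher and 3.92% lower.

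**Figure D4:**
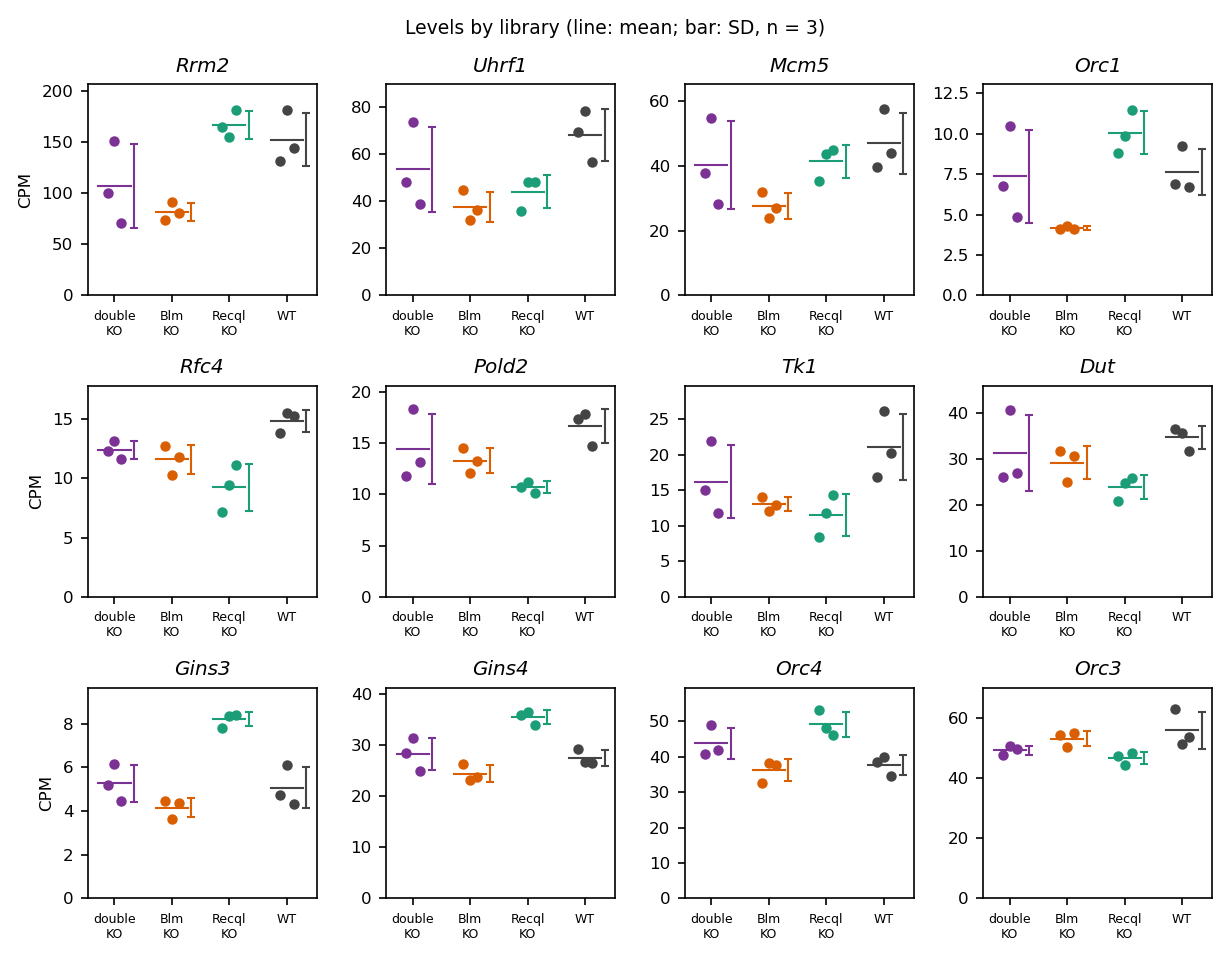
CPM of 12 replication genes in each library, with the mean (line) and SD (bar, n = 3) by genotype. The Blm KO points of Rrm2, Uhrf1, Mcm5 and Orc1 lie below the WT points, and the Recql KO points lie below WT for Rfc4, Pold2, Tk1, Dut and Orc3 and above WT for Gins3, Gins4 and Orc4.

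In double KO cells against WT no replication gene was called, and the double KO libraries overlapped WT for 43 of the 46. edgeR called 0 of 46 with a smallest adjusted p of 0.455, where it called 0.121% of all genes (0.0739% higher and 0.0471% lower). At an unadjusted p under 0.05, 1 gene was higher and 2 were lower, against 5.4% and 5.38% of all genes, and DESeq2 also called 0. The median log2 fold change was -0.13, with 40 genes below 0. Every double KO library lay below every WT library for 2 genes (6.8% of all genes) and above for 1 (7.29% of all genes). The genes with the smallest p were Orc4 at 0.22 ± 0.10, Rrm2 at -0.51 ± 0.23, Orc3 at -0.18 ± 0.08, Lig1, the ligase that seals lagging strand fragments, at -0.36 ± 0.17 and Pold1 at -0.43 ± 0.21.

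For Rrm2, Pold1 and Lig1 the double KO libraries lay on both sides of the lowest WT library. Rrm2 stood at 99.9, 151 and 70.5 CPM in double KO libraries, against 132, 182 and 144 CPM in WT libraries. Pold1 stood at 11.4, 17.98 and 12.02 CPM in double KO libraries, against 16.0, 22.6 and 17.2 CPM in WT libraries. In both genes replicate 2 lay within the WT range and the other replicates lay below it. Lig1 stood at 35.2, 45.7 and 28.9 CPM in double KO libraries, against 48.3, 48.8 and 44.1 CPM in WT libraries. Orc3 stood at 47.8, 50.7 and 49.7 CPM in double KO libraries, against 63.0, 51.3 and 53.9 CPM in WT libraries. Orc4 stood at 40.8, 48.8 and 41.8 CPM in double KO libraries, against 38.4, 39.9 and 34.5 CPM in WT libraries. Every double KO library lay below WT for Orc3 and above WT for Orc4, and Lig1 overlapped through replicate 2. Double KO replicate 1 was below the lowest WT library for 27 of the 46 genes, replicate 2 for 2 and replicate 3 for 42. Replicate 1 was above the highest WT library for 1, replicate 2 for 28 and replicate 3 for 2. The share of all genes outside the WT range was not counted for single libraries. Without double KO replicate 2 the median over the 46 genes was -0.33, and without replicate 3 it was 0.03.

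Against Blm KO, double KO cells had higher values of most replication genes, without a call. The median log2 fold change was 0.35, with 44 of 46 above 0. edgeR called 0 of 46, where it called 1.96% of all genes (0.934% higher and 1.02% lower), with a smallest adjusted p of 0.0932. At an unadjusted p under 0.05, 21 were higher and 0 lower, against 11.9% and 11.4% of all genes, and DESeq2 called 3 higher (Orc1, Mcm3 and Rrm1), against 4.87% of all genes. Every double KO library lay above every Blm KO library for 9 genes (12% of all genes) and below for 0 (14.1% of all genes). Without double KO replicate 3, 4 were called higher (Orc1, Cdc6, Pole and Rrm1), against 1.89% of all genes. The median of the 20 genes of G2 and mitosis was 0.48 in the same comparison, also with 0 called by edgeR and 11 higher at an unadjusted p under 0.05, and its part in these values was not tested.

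Rrm1 stood at 180.4, 245 and 142 CPM in double KO libraries, against 138, 128 and 111 CPM in Blm KO libraries, a log2 difference of 0.59 ± 0.17. Orc1 stood at 6.77, 10.5 and 4.84 CPM in double KO libraries, against 4.10, 4.31 and 4.09 CPM in Blm KO libraries, a log2 difference of 0.82 ± 0.25. The libraries of these genes did not overlap, and replicate 3 of double KO was nearest to Blm KO. Tyms, thymidylate synthase, stood at 42.2, 53.2 and 40.3 CPM in double KO libraries, against 37.7, 36.4 and 32.4 CPM in Blm KO libraries, a log2 difference of 0.35 ± 0.11. Mcm3 stood at 45.1, 70.7 and 37.0 CPM in double KO libraries, against 37.7, 27.0 and 30.1 CPM in Blm KO libraries, a log2 difference of 0.69 ± 0.23. Pole, the catalytic subunit of the leading strand polymerase, stood at 28.5, 39.6 and 22.5 CPM in double KO libraries, against 23.8, 19.2 and 18.6 CPM in Blm KO libraries, a log2 difference of 0.56 ± 0.19. Mcm3 and Pole overlapped through double KO replicate 3.

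Against Recql KO, Gins3 and Gins4 fell in double KO cells. edgeR's quasi-likelihood test called these 2 of 46 lower and 0 higher, where it called 24.7% of all genes (11.6% lower and 13.2% higher). Gins3 stood at 5.21, 6.15 and 4.46 CPM in double KO libraries, against 7.82, 8.37 and 8.42 CPM in Recql KO libraries, a log2 difference of -0.64 ± 0.17 (adjusted p 0.0183, edgeR). Gins4 stood at 28.6, 31.4 and 25.1 CPM in double KO libraries, against 36.0, 36.6 and 34.1 CPM in Recql KO libraries, a log2 difference of -0.33 ± 0.09 (adjusted p 0.0256, edgeR). Neither gene overlapped between the groups. Next by p were Rpa1, the large RPA subunit, at -0.40 ± 0.14 (adjusted p 0.0545, edgeR), Rfc4 at 0.42 ± 0.15 (adjusted p 0.0591, edgeR) and Pold2 at 0.43 ± 0.15 (adjusted p 0.0628, edgeR).

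Rpa1 stood at 98.7, 127 and 92.0 CPM in double KO libraries, against 131, 145 and 145 CPM in Recql KO libraries. Rfc4 stood at 12.4, 13.2 and 11.6 CPM in double KO libraries, against 7.196, 9.42 and 11.1 CPM in Recql KO libraries. Pold2 stood at 11.8, 18.3 and 13.2 CPM in double KO libraries, against 10.8, 11.2 and 10.2 CPM in Recql KO libraries. For all 3 of these genes the groups did not overlap. The number called lower was 14 without double KO replicate 2, against 10.8% of all genes. It was 0 without Recql KO replicate 2 or double KO replicate 3, 1 without Recql KO replicate 1, Recql KO replicate 3 or double KO replicate 1, and 2 or 3 without any of the other 6. Without double KO replicate 3, 8.04% of all genes were called lower. With 1 library left out, between 2157 and 3875 of all genes were called in either direction. Over all 46 genes, 3 were non-overlapping and higher (22.5% of all genes) and 5 lower (21.1% of all genes).

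The interaction asks whether the effect of losing Recql was the same with and without Blm. It was positive and called for Rfc4, Pold2 and Uhrf1, 3 of 46 genes, where edgeR called 10.4% of all genes (5.86% positive and 4.58% negative). Rfc4 had an interaction of 0.78 ± 0.21 (log2, SE, adjusted p 0.0404, edgeR). Pold2 had 0.76 ± 0.22 (adjusted p 0.0498, edgeR) and Uhrf1 had 1.14 ± 0.32 (adjusted p 0.0498, edgeR). Uhrf1 stood at 48.2, 73.4 and 38.8 CPM in double KO libraries and 35.8, 48.2 and 48.04 CPM in Recql KO libraries. The double KO libraries of Uhrf1 overlapped those of Recql KO, Blm KO and WT. Its log2 difference from WT was -0.35 ± 0.23 for double KO, -0.86 ± 0.23 for Blm KO and -0.63 ± 0.23 for Recql KO, and none of the 3 passed the test. For Pold2 it was -0.21 for double KO, -0.33 for Blm KO and -0.63 for Recql KO.

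These 3 calls lie near the threshold. Over the 46 genes the interaction was above 0 for 39, with a median of 0.39, and an unadjusted p under 0.05 was found for 15 positive and 1 negative (15.2% and 13% of all genes). The next by p was Tk1 at 1.19 ± 0.35 (adjusted p 0.0568, edgeR). The number called was 0 with the replicate number as a block and 0 with a covariate for the Y-linked level. It was 7 without double KO replicate 3 (Mcm7, Gins1, Rpa3, Rrm1, Tyms, Tk1 and Uhrf1, against 5.56% of all genes), 3 without Blm KO replicate 1, 1 without Recql KO replicate 3 (Rfc4), 1 without double KO replicate 1 (Pold2) and 0 without any of the other 8. Among all genes, between 549 and 1836 interactions were called in either direction with 1 library left out. Of the 20 genes of G2 and mitosis, 15 had a called and positive interaction, with a median of 1.25, and its part in these values was not tested. All comparisons with WT share the 3 WT libraries, and the interaction uses all 12.

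A further 46 genes of replication outside the list, among them the kinase pair Cdc7 and Dbf4, the fork proteins Timeless and Clspn and the histone chaperones Chaf1a and Asf1b, were examined by count. Against WT, the median log2 fold change was -0.10 for double KO, -0.46 for Blm KO and -0.11 for Recql KO. edgeR called 1 of these lower in Blm KO, 1 higher and 4 lower in Recql KO, and 0 for double KO, against the shares of all genes given above. At an unadjusted p under 0.05, 0 were higher or lower in double KO (5.4% and 5.38% of all genes). In Blm KO 26 of the 46 were lower and 1 higher (9.74% and 9.12% of all genes), and in Recql KO 7 were lower and 1 higher (22% and 20.1% of all genes). The gene called in Blm KO was 2810417H13Rik, now Pclaf, which encodes a PCNA-binding factor. It stood at 38.6, 30.2 and 29.6 CPM in Blm KO libraries, against 89.5, 104 and 86.1 CPM in WT libraries, a log2 difference of -1.51 (adjusted p 0.0383, edgeR). It stood at 57.7, 99.4 and 41.6 CPM in double KO libraries and its interaction was 1.70 (adjusted p 0.0207, edgeR). The interaction was also called for Dbf4, the activator of the CDC7 kinase, at 1.08 (adjusted p 0.0437, edgeR) and for Nasp, a histone chaperone, at 1.07 (adjusted p 0.0491, edgeR).

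In Recql KO the gene of this wider set with the smallest p was Samhd1, a phosphohydrolase that breaks down dNTPs. It stood at 67.9, 65.8 and 79.3 CPM in the libraries labelled Recql KO, against 125, 134 and 153 CPM in WT libraries, a log2 difference of -0.95 (adjusted p 0.00539, edgeR). The groups did not overlap. Rrm2b, the ribonucleotide reductase subunit used outside S phase, rose by 0.52 on the log2 scale (adjusted p 0.0312, edgeR), while Lrwd1, which binds the origin recognition complex, was at -0.39 (adjusted p 0.0239, edgeR) and Dtymk, thymidylate kinase, at -0.42 (adjusted p 0.0316, edgeR). In double KO against Recql KO, Samhd1 rose by 0.65 (adjusted p 0.0309, edgeR) and Shmt1, a serine hydroxymethyltransferase of folate metabolism, by 0.59 (adjusted p 0.0230, edgeR).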

How the data were processed

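Polyadenylated RNA of 12 libraries (4 genotypes, 3 libraries each) was measured. The file the authors deposited holds RSEM expected counts for each gene, made with Bowtie2 2.1.0 and RSEM 1.2.15 on mm10, per the submitters' processing notes. Libraries were made with a stranded kit, per the labels' protocols. The annotation, the strand setting of the counting and any read filter are not given in the sources used here. Between 17.4% and 20.2% of values per library were not whole, and all were rounded.

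In R 4.3.3, edgeR 4.0.16 was used with filterByExpr by group, TMM scaling (factors 0.96 to 1.03), 1 mean per genotype over all 12 libraries and the robust quasi-likelihood F test (8 residual degrees of freedom), with Benjamini-Hochberg adjustment over 14876 genes. A call needed an adjusted p under 0.05. There were 6 comparisons. Levels are TMM-scaled CPM, errors are SD over libraries or SE of the model. Lengths are unions of exons of the GENCODE annotation of mm10. The steps were tested on simulated data.

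The genes, the lists and the alternatives were chosen with earlier results of these data known. Values per library are given for up to 10 called genes of a comparison by smallest p, or for the 5 with the smallest p where fewer than 3 are called, and for up to 4 called genes of the wider set. Some genes named beside them were added by role. Alternatives were RLE scaling, no filter, CPM above 1 in 3 libraries, DESeq2 1.42.0, only the groups compared, the replicate number as a block, the Y-linked level as a covariate, only libraries with a Y-linked sum above 100 CPM, and leaving out each library. The labels do not say whether replicate numbers pair the libraries, so the main test used no pairing.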

Additional observations from a re-analysis of the deposited data

Results flagged for a closer look

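The effect of the Recql KO label differed between cells with and without Blm for 3 replication genes, by edgeR's test of the interaction itself. These are 6.52% of the 46 genes, where 10.4% of all genes were called. The interaction was 0.755 for Pold2, 0.776 for Rfc4 and 1.14 for Uhrf1 on the log2 scale, with adjusted p of 0.0498, 0.0404 and 0.0498. Rfc4 had a log2 fold change of 0.09 in double KO against Blm KO, and -0.68 in Recql KO against WT. Pold2 had 0.12 in double KO against Blm KO, and -0.63 in Recql KO against WT. Uhrf1 had 0.51 in double KO against Blm KO, and -0.63 in Recql KO against WT. None of the 3 was called with the replicate block, with the Y-linked covariate or without a filter on low counts, and with RLE scaling only Rfc4 was.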

How the results depend on the processing

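The median over the 46 genes kept its sign under every alternative run for Blm KO against WT, double KO against Blm KO and the interaction. Shares of all genes called in the same direction are given in brackets where they were counted. Relative to the counts given above, the number called lower in Blm KO was 17 with DESeq2 (3.64%) and 1 with only the groups compared (Rrm2, 0.622%). It was 0 to 15 with 1 library left out. In Recql KO the number higher was 5 with only the groups compared (15.6%), and 2 to 5 with 1 library left out. The number lower there was 2 with the Y-linked covariate (12.4%), and 2 to 9 with 1 left out. In double KO against Blm KO, 3 were higher with DESeq2 (4.87%), and 0 to 4 with 1 left out. In double KO against Recql KO the number higher was 2 with DESeq2 (13.9%) and 1 with the Y-linked covariate (12.9%), and 0 to 1 with 1 left out. The number lower there was 4 with DESeq2 (13%), 1 with only the groups compared (10.6%) and 4 with the replicate block, and 0 to 14 with 1 left out. The number with a positive interaction was 1 with RLE scaling, 0 without a filter, 8 with DESeq2 (9.12%) and 0 with the replicate block. It was 0 with the Y-linked covariate (3.18%), and 0 to 7 with 1 left out. The cause of these shifts was not tested. Whether replicate numbers pair the libraries could not be decided, because each genotype has only 3 libraries and the labels do not say. Of 18 pairs with the same number, 5 had deviations that correlated above 0.1 (range -0.168 to 0.227). Pairs with different numbers ran from -0.312 to 0.227. In the libraries high in Y-linked transcripts, where each KO has 1 library that is assumed to vary like the others, the median changed sign, to 0.22 for double KO against WT, -0.18 for Recql KO against WT and 0.39 for double KO against Recql KO. It also changed sign without double KO replicate 3 for double KO against WT (0.03), and without Recql KO replicate 3, WT replicate 1 or WT replicate 3 for Recql KO against WT (-0.04, -0.01 and -0.03).

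With at least 153 counts per gene and library, and a biological coefficient of variation of 0.209 over all genes, the spread between 3 libraries sets the errors more than counting does. Y-linked transcripts were high in all WT libraries and in 1 library of each KO label, and Xist was high in the others. This split of the libraries and the genotype are therefore only partly separable. Without a stated strand setting, reads of genes that overlap another gene on the opposite strand cannot be told apart. This concerns 84.2% of the exon bases of Fen1 and 67.3% of those of Gins2, the largest shares. Smaller shares include 29.8% for Orc2, 15.1% for Rfc2, 12.7% for Rfc4, 10.8% for Orc1 and 10.7% for Rfc5.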
